A study of Mus musculus with 12 samples.

Results

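The genes described are the 7 that code for the subunits of the NMDA receptor, *Grin1*, *Grin2a*, *Grin2b*, *Grin2c*, *Grin2d*, *Grin3a* and *Grin3b*, of 37991 genes counted in mouse hippocampus. They were taken by Ensembl ID as the whole *Grin1*, *Grin2* and *Grin3* families, with no filter on their values. Earlier results of these data were known when the families were chosen. Poly(A) RNA-seq libraries came from 12 C57BL/6N mice aged 6 to 7 months, all of which underwent passive avoidance (PA) training, in which entry into a dark compartment is followed by a foot shock. Hippocampi were dissected 1 h later. Of the libraries, 6 are labelled Wildtype and 6 Gadd45a-KO, the latter from siblings homozygous for a deficient *Gadd45a* allele in every cell of the body, obtained by crossing heterozygotes. No untrained mice were part of the series, so that training is common to all libraries. The comparison of labels addresses which transcripts differ in the trained hippocampus when Gadd45α, a small stress-response protein tied to RNA and DNA metabolism, is missing.

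The NMDA receptor is a glutamate-gated cation channel of 4 subunits. *Grin1* codes for the obligatory GluN1 subunit, which binds the co-agonist glycine or D-serine. The *Grin2* genes code for the GluN2 subunits, which bind glutamate and set the kinetics, conductance and magnesium block of the channel. *Grin3a* and *Grin3b* code for GluN3 subunits, which also bind glycine and lower calcium permeability. In the adult hippocampus GluN2A and GluN2B are the main GluN2 subunits of principal neurons, and calcium entry through such receptors starts the synaptic changes that underlie many forms of memory.

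Because the subunits are related proteins, the coding sequence was examined for stretches that could divert reads from one gene to another. The following 30 coding bases of *Grin1*, *Grin2c*, *Grin3a* and *Grin3b* were those most like a stretch of *Grin2a*. The stretch was chosen because it starts at the longest run that *Grin2a* shares with *Grin3b* (20 bases). It codes for part of the third membrane segment, which lines the channel. Capitals mark the bases equal to those of *Grin2a* at the same place, and sequences run 5′ to 3′ along the transcript (NCBIM37).
Grin1 (chr2:25152716-25152745, minus strand): tccTACACtGCCAACCTGGCaGCCTTCcTG
Grin2a (chr16:9653537-9653566, minus strand): AGTTACACAGCCAACCTGGCTGCCTTCATG
Grin2c (chr11:115115060-115115089, minus strand): AGcTACACgGCCAAtCTGGCaGCCTTCATG
Grin3a (chr4:49783339-49783368, minus strand): AcaTACACAGCgAACtTGGCTGCtgTCATG
Grin3b (chr10:79437381-79437410, plus strand): AGTTACACAGCCAACCTGGCaGCtgTCATG

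The other genes shown shared 24 to 27 of the 30 bases with *Grin2a*. Over the annotated protein-coding transcripts of the 7 genes, the longest run of identical bases in a pair of genes was 12 to 34 bases across the 21 pairs. Reads were 51 bases long, and 0 of the 21 pairs shared a run of that length, so that no read that matched these transcripts exactly fitted 2 subunits.

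The targeted gene was examined first. *Gadd45a* was covered by 102 to 154 reads per Wildtype library and by 946 to 1179 per Gadd45a-KO library (log2 fold change 3.06, SE 0.09). The reads on the targeted gene thus went against the labels, and libraries are called by their labels below. By the methods of the study, a neomycin cassette takes the place of the first 3 exons in this allele, while exon 4 is still there. Counts per gene do not separate exons, so that they do not check the deletion. Between 44594261 and 55540601 reads per library fell on genes. Reads that fell on no gene made up 14.4% to 15.8% of all reads on genes, on no gene or on more than 1 gene in the libraries labelled Wildtype and 13.0% to 14.3% in those labelled Gadd45a-KO, without overlap. Markers of hippocampal neurons were present in every library, with summed levels of 1861 to 2408 CPM for 8 pyramidal cell genes and 382 to 818 CPM for 6 granule cell genes. Gadd45a-KO replicates 2 and 3 stood apart. Their summed levels of 12 thalamic genes were 438 and 641 CPM, against 136 to 189 CPM in the other libraries, and replicate 3 had 7311 CPM of 6 oligodendrocyte genes against 2317 to 3738 CPM elsewhere. Of the thalamic genes, 10 passed the expression filter and all of these had log2 fold changes above 0. At 1% FDR 0 were called in edgeR and 0 in DESeq2. At an unadjusted p under 0.05 edgeR had 7 higher, against 4.34% of all genes tested. Without Gadd45a-KO replicates 2 and 3, 6 of the 10 were below 0, and edgeR had 0 higher and 2 lower at that p. All 6 oligodendrocyte genes were higher in Gadd45a-KO at that p in edgeR with all libraries, and 0 at 1% FDR. Without replicates 2 and 3, 0 of the 6 were higher at that p, with log2 fold changes from 0.16 to 0.21. The thalamic gene *Shox2* had 0 reads in every library. Results are therefore also given without these libraries.

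Counts were scaled to CPM, that is relative to the size of each library. Over the 16399 genes that passed edgeR's filter on low counts, its quasi-likelihood test set the labels against each other at 1% FDR, with p-values adjusted by Benjamini-Hochberg. Of the 7 subunit genes 6 passed the filter, and *Grin3b* did not. At 1% FDR, 1 of the 6 was lower in Gadd45a-KO, *Grin2a*, while over all genes tested 2.62% were lower. None of the 6 was higher, against 0.0244% of all genes, and 0 were higher at an unadjusted p under 0.05 or at 1% FDR in DESeq2, which called 0.112% of genes as higher. *Grin2b* had a fold change as large as that of *Grin2a* with a wider spread and missed the threshold. The estimates for *Grin1*, *Grin2c*, *Grin2d* and *Grin3a* were between -0.14 and 0.16 on the log2 scale.

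**Figure D1:**
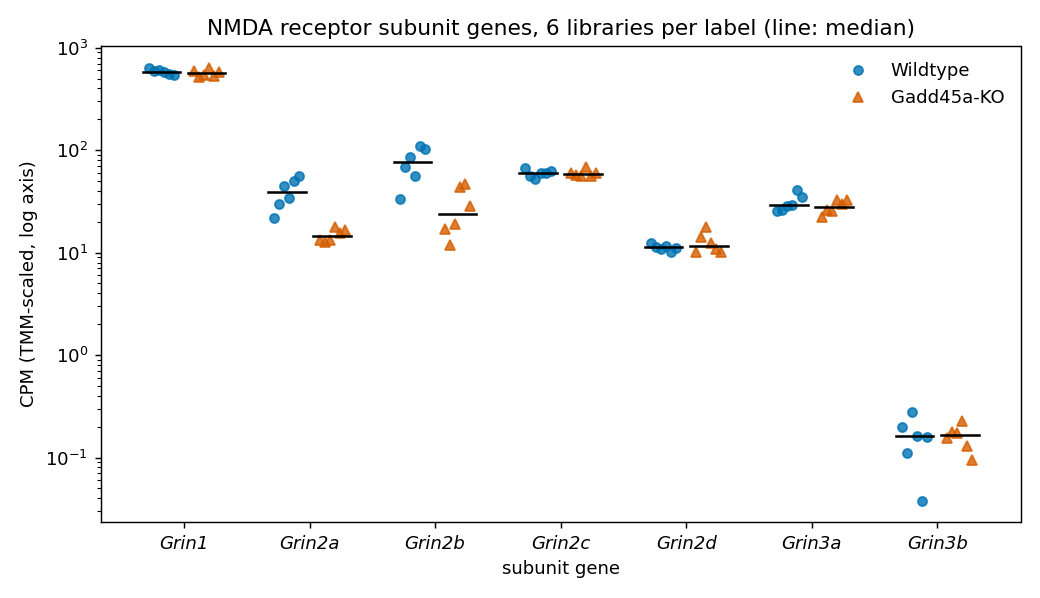
CPM of each subunit gene (log axis) in the 6 libraries labelled Wildtype (circles) and the 6 labelled Gadd45a-KO (triangles), with points in order of replicate number and a line at each median. The labels do not overlap for *Grin2a*, overlap in part for *Grin2b*, and lie over each other for the other genes.

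*Grin1* (ENSMUSG00000026959, chromosome 2 from 25146701 to 25174707) had the most reads of the family. Its level was 544, 583 and 637 CPM (lowest, median and highest) in the libraries labelled Wildtype and 519, 562 and 639 CPM in those labelled Gadd45a-KO. The Gadd45a-KO range took in the whole Wildtype range, with 3 Gadd45a-KO libraries below every Wildtype library and 1 above. The log2 fold change was -0.04 (SE 0.06, edgeR adjusted p = 0.855), with a 95% interval of -0.15 to 0.07. The interval thus left room for small changes in either direction only.

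*Grin2a* (ENSMUSG00000059003, chromosome 16 from 9577803 to 9995014) codes for GluN2A, the subunit that gives fast-closing receptors and whose share rises as synapses mature. In Wildtype replicates 1 to 6 it had 21.5, 29.6, 44.3, 33.8, 49.5 and 55.7 CPM, from 979 to 2788 reads. In Gadd45a-KO replicates 1 to 6 it had 13.2, 12.7, 13.2, 17.7, 15.7 and 16.7 CPM, from 579 to 879 reads. Every Gadd45a-KO library lay below every Wildtype library, a pattern found for 1 of the 6 subunit genes and for 3.12% of all genes tested. The means were 39.1 ± 13.0 CPM (SD, n = 6) and 14.9 ± 2.11 CPM (SD, n = 6). The log2 fold change was -1.40 (SE 0.19, edgeR adjusted p = 0.000524). The Gadd45a-KO level over annotated exons was thus 0.380 times that of Wildtype. An estimate as low as this was found for 31 of the 16399 genes, *Grin2a* included. Without Gadd45a-KO replicates 2 and 3 the log2 fold change was -1.31, still at 1% FDR (edgeR adjusted p = 0.00551). Counts per gene in bulk tissue do not tell fewer cells that express a gene from less RNA per cell. The study reports that *Grin2a* coverage was alike in both genotypes at the end of its extended 3′UTR and lower in Gadd45a-KO upstream of it. By quantitative PCR it found no significant difference in *Grin2a* where cDNA was made with random primers. Where cDNA was primed at the poly(A) tail, *Grin2a* was lower in trained Gadd45a-KO mice. Intronic coverage and pre-mRNA of *Grin2a* did not differ significantly in the study. Where along the transcript the reads differed was not tested here.

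*Grin2b* (ENSMUSG00000030209, chromosome 6 from 135679844 to 136123529) codes for GluN2B, which gives slowly closing receptors, dominates early in development and binds CaMKII. It lies on the chromosome of *Gadd45a*, 68.7 Mb away. Wildtype replicates 1 to 6 had 33.2, 68.7, 85.9, 55.5, 110.7 and 103.3 CPM. Gadd45a-KO replicates 1 to 6 had 17.2, 11.98, 19.1, 43.7, 46.4 and 28.3 CPM. Wildtype replicate 1 fell below Gadd45a-KO replicates 4 and 5, and all other Wildtype libraries lay above all Gadd45a-KO libraries. The means were 76.2 ± 29.5 CPM and 27.8 ± 14.4 CPM (SD, n = 6 each). The log2 fold change was -1.46 (SE 0.34, edgeR adjusted p = 0.0201), with a 95% interval of -2.12 to -0.79. All 6 Gadd45a-KO libraries were below the Wildtype mean. With 1 library left out, the log2 fold change ran from -1.65 to -1.29 and the edgeR adjusted p from 0.00705 to 0.0631. Of these fits, only that without Wildtype replicate 1 passed 1% FDR (log2 fold change -1.60, edgeR adjusted p = 0.00705). DESeq2 called *Grin2b* at 1% FDR with all libraries (log2 fold change -1.45, adjusted p = 0.00373), where it called 4.15% of the genes with an adjusted p as lower. Without Gadd45a-KO replicates 2 and 3 the value was -1.17 (edgeR adjusted p = 0.0845), and with the mean thalamic marker level of each library as a covariate it was -1.16 (edgeR adjusted p = 0.0616). For *Grin2b* too, the study reports lower coverage of most annotated exons but no significant difference at the end of its extended 3′UTR. Its quantitative PCR on randomly primed cDNA showed no significant difference in *Grin2b*. The values here hold for reads on annotated exons.

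*Grin2c* (ENSMUSG00000020734, chromosome 11 from 115110483 to 115128557) codes for GluN2C, best known from cerebellar granule cells and also made by astrocytes and thalamic neurons. It had 52.3, 60.4 and 66.9 CPM (lowest, median and highest) in the libraries labelled Wildtype, and 55.3, 58.3 and 68.3 CPM in those labelled Gadd45a-KO. The log2 fold change was -0.01 (SE 0.06, edgeR adjusted p = 0.982), with a 95% interval of -0.13 to 0.11. Its level thus differed by less than the spread between libraries. The summed level of 5 cerebellar genes was 0.698 to 1.32 CPM over all libraries, and that of 6 astrocyte genes was 1797 to 2195 CPM.

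*Grin2d* (ENSMUSG00000002771, chromosome 7 from 53087253 to 53126298) codes for GluN2D, which in the hippocampus is found mainly in interneurons and is common in the diencephalon. Wildtype libraries held 10.1, 11.2 and 12.5 CPM (lowest, median and highest). Gadd45a-KO replicates 1 to 6 held 10.1, 14.1, 17.7, 12.5, 10.8 and 10.2 CPM. The highest values were those of replicates 2 and 3, the libraries with the high thalamic markers, and the other Gadd45a-KO libraries lay within the Wildtype range or within 0.1 CPM of it. The log2 fold change was 0.16 (SE 0.12, edgeR adjusted p = 0.656) with all libraries and -0.05 (edgeR adjusted p = 0.9998) without these 2 libraries. The summed level of 8 interneuron genes was 617 to 694 CPM in Wildtype and 595 to 700 CPM in Gadd45a-KO.

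*Grin3a* (ENSMUSG00000039579, chromosome 4 from 49674483 to 49858616) codes for GluN3A, which is known to restrain the maturation of synapses. It had 25.6, 28.9 and 41.1 CPM in the libraries labelled Wildtype and 22.2, 28.1 and 32.7 CPM in those labelled Gadd45a-KO (lowest, median and highest). The log2 fold change was -0.14 (SE 0.12, edgeR adjusted p = 0.723), and the 95% interval ran from -0.38 to 0.10. *Grin3b* (ENSMUSG00000035745, chromosome 10 from 79433460 to 79439935) codes for GluN3B, which is best known from motor neurons. Wildtype libraries held 2 to 15 of its reads and Gadd45a-KO libraries 5 to 11, and no test was made of it at this depth.

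**Figure D2:**
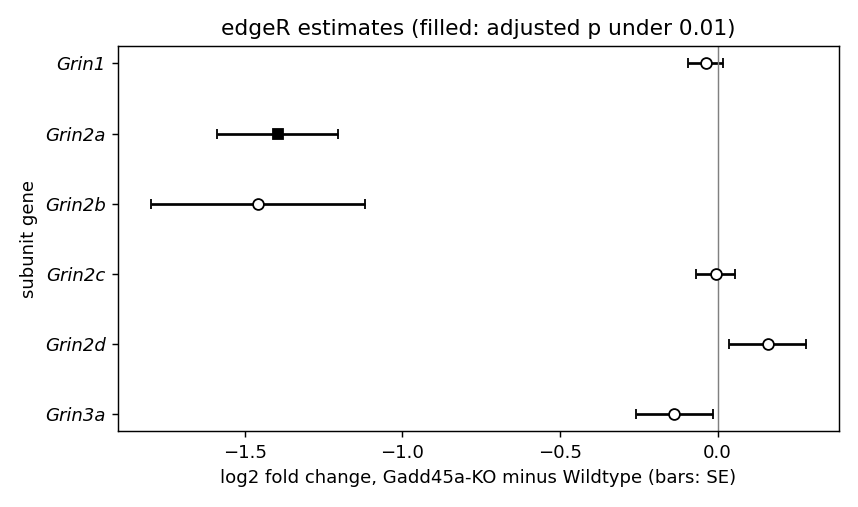
Log2 fold change of the 6 subunit genes that passed the filter, Gadd45a-KO minus Wildtype, with bars of 1 SE from edgeR; the filled square marks an adjusted p under 0.01. *Grin2a* (-1.40) and *Grin2b* (-1.46) lie apart from the other genes, which lie between -0.14 and 0.16.

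The genes also differed in how much libraries of 1 label varied among themselves. The coefficient of variation of *Grin2b* was 38.7% among the libraries labelled Wildtype and 51.9% among those labelled Gadd45a-KO, where the medians over all genes tested were 7.60% and 7.96%. A value at least as high was found in 2.46% and 1.65% of the genes tested. *Grin2a* varied by 33.2% in Wildtype, a value reached by 4.13% of genes, and by 14.2% in Gadd45a-KO, reached by 27.6%. *Grin1* (5.95% and 8.07%) and *Grin2c* (8.43% and 7.99%) were close to the median gene. *Grin2d* varied by 6.98% in Wildtype and by 23.4% in Gadd45a-KO. Of the 6 genes that passed the filter, *Grin2b* and *Grin2a* thus had the widest spread within the Wildtype label. *Grin3b*, with its few reads, varied by 50.8%.

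*Grin2a* and *Grin2b* varied together. Within Wildtype, Pearson's r of their log2 CPM was 0.945 (exact permutation p = 0.00833, adjusted over 12 relations 0.1) and Spearman's rho was 0.886 (exact permutation p = 0.0333, adjusted 0.175). Within Gadd45a-KO, r was 0.880 (exact permutation p = 0.0431, adjusted 0.172) and rho was 0.829 (exact permutation p = 0.0583, adjusted 0.175). Without the 2 libraries farthest from the median of *Grin2a*, r was 0.849 and 0.982. The relation thus kept its sign within each label but did not pass the adjustment. The 12 relations were 6 pairs of measures in each label, and none of them passed it.

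**Figure D3:**
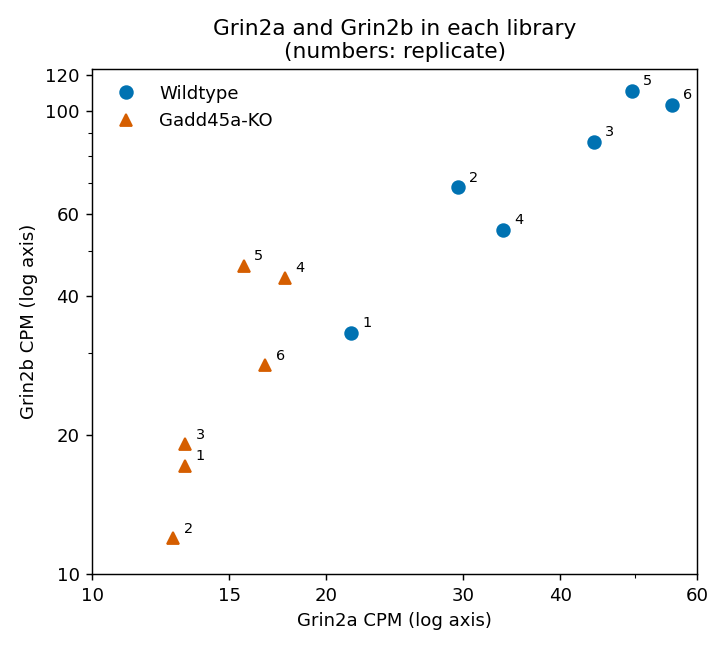
CPM of *Grin2b* against CPM of *Grin2a* (log axes) in each library, with circles for Wildtype, triangles for Gadd45a-KO and replicate numbers beside the points. Wildtype replicate 1 (21.5 and 33.2 CPM) is the Wildtype library closest to the Gadd45a-KO libraries, and Gadd45a-KO replicate 2 (12.7 and 11.98 CPM) is the lowest.

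*Grin1* went the other way to *Grin2a* within Wildtype (r = -0.839, exact permutation p = 0.0389, adjusted 0.172; rho = -0.829, exact permutation p = 0.0583, adjusted 0.175), but r was -0.40 without the 2 farthest libraries, so that the relation rested on them. Within Gadd45a-KO r was 0.618 (exact permutation p = 0.158, adjusted 0.279) and rho was 0.600 (exact permutation p = 0.242, adjusted 0.414). The share of reads without a gene, which differed between the labels, had r = 0.742 with *Grin2a* within Wildtype (exact permutation p = 0.0944, adjusted 0.237; rho = 0.714, exact permutation p = 0.136, adjusted 0.327) and r = 0.240 within Gadd45a-KO (exact permutation p = 0.633, adjusted 0.691; rho = -0.09, exact permutation p = 0.919, adjusted 1). With *Grin2b* it had r = 0.724 within Wildtype (exact permutation p = 0.0986, adjusted 0.237; rho = 0.829, exact permutation p = 0.0583, adjusted 0.175) and r = 0.371 within Gadd45a-KO (exact permutation p = 0.476, adjusted 0.635; rho = 0.257, exact permutation p = 0.658, adjusted 0.790). Without the 2 farthest libraries these 4 values of r were 0.063, -0.44, 0.451 and -0.40. The part of reads outside annotated exons in the difference of *Grin2a* and *Grin2b* was not tested.

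The summed level of the thalamic genes had r = -0.68 with *Grin2b* within Gadd45a-KO (exact permutation p = 0.163, adjusted 0.279; rho = -0.66, exact permutation p = 0.175, adjusted 0.350) and -0.31 within Wildtype (exact permutation p = 0.550, adjusted 0.660; rho = -0.26, exact permutation p = 0.658, adjusted 0.790). With *Grin2c* it had r = -0.53 within Gadd45a-KO (exact permutation p = 0.315, adjusted 0.473; rho = -0.54, exact permutation p = 0.297, adjusted 0.446) and 0.030 within Wildtype (exact permutation p = 0.961, adjusted 0.961; rho = 0.029, exact permutation p = 1, adjusted 1). Without the 2 farthest libraries r was -0.65 and -0.01 for *Grin2b*, and -0.61 and 0.530 for *Grin2c*, in the same order of labels.

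Levels of different genes were compared as CPM per kb of exon, where exon length is the union of all annotated exons of a gene. In the libraries labelled Wildtype the order of the mean levels was *Grin1* (60.1 ± 3.58, SD, n = 6), *Grin2c* (11.8 ± 0.998), *Grin2b* (9.33 ± 3.61), *Grin2a* (7.38 ± 2.45), *Grin3a* (1.96 ± 0.380), *Grin2d* (1.92 ± 0.134) and *Grin3b* (0.048 ± 0.024). *Grin1* lay above every other gene in all 6 libraries. The ranges of *Grin2c* and *Grin2b* overlapped, as did those of *Grin2b* and *Grin2a* and those of *Grin3a* and *Grin2d*. Within a library, *Grin2b* was above *Grin2a* in 5 of 6 and *Grin3a* above *Grin2d* in 2 of 6. Across libraries these neighbours did not differ beyond their spread, and the order within libraries was not tested. In the libraries labelled Gadd45a-KO the order was *Grin1* (58.6 ± 4.73), *Grin2c* (11.8 ± 0.942), *Grin2b* (3.40 ± 1.76), *Grin2a* (2.80 ± 0.399), *Grin2d* (2.14 ± 0.501), *Grin3a* (1.78 ± 0.270) and *Grin3b* (0.048 ± 0.014). Here *Grin2c* exceeded *Grin2b* in 6 of 6 libraries, against 3 of 6 in Wildtype, while *Grin2b* and *Grin2a*, *Grin2a* and *Grin2d*, and *Grin2d* and *Grin3a* had overlapping ranges.

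The order depended on the length used for some genes. The union of exons is 9700 bases for *Grin1* and 15779 for *Grin3a*, where the longest annotated transcripts have 4276 and 7491 bases. Per kb of coding sequence (2877 and 3405 bases) the Wildtype means were 202.7 for *Grin1*, 17.1 for *Grin2b*, 16.1 for *Grin2c*, 9.08 for *Grin3a*, 8.89 for *Grin2a* and 2.83 for *Grin2d*. *Grin1* stayed in the first place and *Grin3b* in the last with each of the 3 lengths. The longest 3′UTR annotated is 117 bases for *Grin2a* and 2272 for *Grin2b*, and reads beyond annotated exons are not in the counts. The study describes 3′UTRs of both genes that extend far past their annotated ends. Levels per kb leave such reads out, and so do the shares below. The place of *Grin2a* and *Grin2b* relative to the other subunits thus holds for annotated exons only.

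Within each library, the levels per kb were then expressed as shares of the sum over the 7 genes, a measure that does not depend on the scaling between libraries. *Grin2a* held 4.48%, 7.98% and 11.0% (lowest, median and highest) in the libraries labelled Wildtype and 3.07%, 3.46% and 3.83% in those labelled Gadd45a-KO, without overlap. *Grin2b* held 4.48%, 10.2% and 14.1% in Wildtype and 2.01%, 3.64% and 7.25% in Gadd45a-KO. The share of *Grin1* was 58.6%, 66.3% and 72.2% in Wildtype and 70.1%, 73.0% and 75.7% in Gadd45a-KO. *Grin2c* held 10.9%, 12.7% and 14.6% in Wildtype and 14.04%, 14.6% and 15.6% in Gadd45a-KO. Since shares add to the same sum, the shares of the genes that did not differ in CPM were higher where those of *Grin2a* and *Grin2b* were lower. *Grin2d* and *Grin3a* each held 1.74% to 3.95% in every library, and *Grin3b* under 0.1%. Taken by coding length, *Grin2a* held 1.87% to 4.98% in Wildtype and 1.26% to 1.58% in Gadd45a-KO, again without overlap, and *Grin1* held 74.0% to 84.3% and 82.1% to 86.5%.

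**Figure D4:**
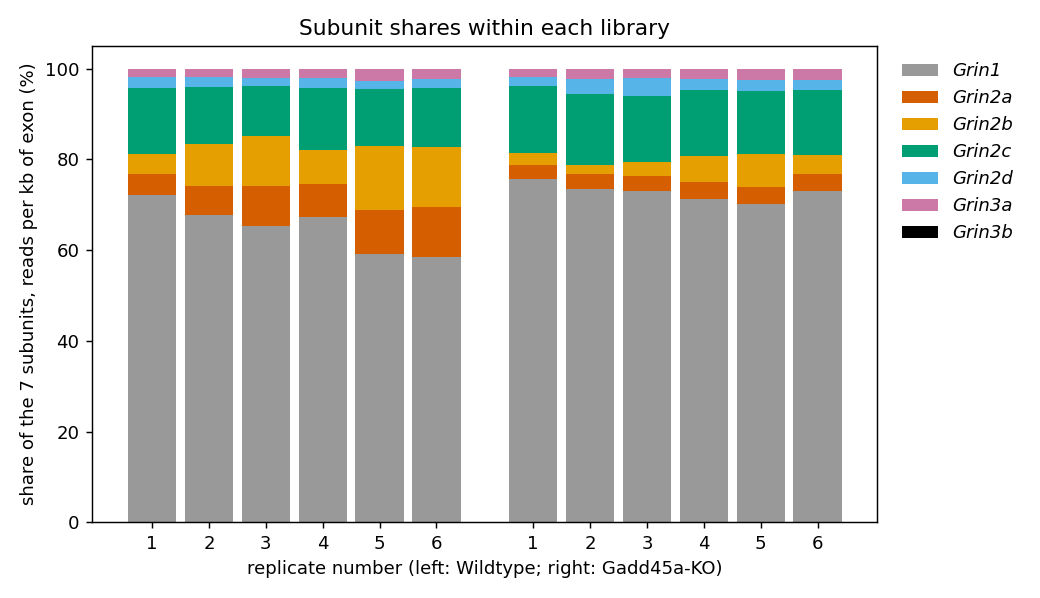
Share of each subunit gene in the summed reads per kb of exon of the 7 genes (%), 1 bar for each library, with Wildtype replicates on the left and Gadd45a-KO replicates on the right. The *Grin2a* and *Grin2b* segments together run from 8.95% to 24.2% in Wildtype and from 5.31% to 11.0% in Gadd45a-KO; the *Grin3b* segment is too thin to be seen.

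Ratios of subunits within a library were compared between the labels by two-sided exact permutation tests on the log2 scale, with p-values adjusted over the 7 ratios. The ratios were judged at 5% FDR, a looser threshold than the 1% FDR used for single genes, and none passed at 1% FDR. The smallest p that 6 libraries against 6 allow is 0.00216. *Grin2a* to *Grin1* fell by 1.29 on the log2 scale (exact permutation p = 0.00216, adjusted 0.0152), and was lower than in every Wildtype library in 6 of 6 Gadd45a-KO libraries. *Grin2b* to *Grin1* fell by 1.48 (exact permutation p = 0.00866, adjusted 0.0202), and was lower than in every Wildtype library in 4 of 6. All *Grin2* genes together, per kb, to *Grin1* fell by 0.55 (exact permutation p = 0.00649, adjusted 0.0202), from a mean of -0.999 ± 0.34 (SD, n = 6) to -1.54 ± 0.14 (SD, n = 6). Like the shares, the ratios leave out reads beyond annotated exons. The longest annotated 3′UTR is 117 bases for *Grin2a* and 1187 for *Grin1*, and its part in the ratios was not tested. The other 4 ratios did not pass. *Grin2c* to *Grin1* differed by 0.03 (exact permutation p = 0.639), *Grin2d* to *Grin1* by 0.17 (exact permutation p = 0.381) and *Grin3a* to *Grin1* by -0.09 (exact permutation p = 0.597), each with an adjusted p of 0.639.

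The ratio of *Grin2a* to *Grin2b*, which in other settings is followed through development, was -0.93 ± 0.24 in Wildtype and -0.74 ± 0.61 in Gadd45a-KO on the log2 scale of reads (SD, n = 6 each), a difference of 0.18 (exact permutation p = 0.509, adjusted 0.639). It ran from -1.22 to -0.62 in Wildtype and from -1.57 to 0.09 in Gadd45a-KO. The Gadd45a-KO range thus extended past the Wildtype range at both ends, with replicates 4 and 5 below it and replicates 1, 2 and 3 above it. Without Gadd45a-KO replicates 2 and 3 the difference was -0.08 (exact permutation p = 0.767). Without the same 2 libraries *Grin2a* to *Grin1* differed by -1.25 (exact permutation p = 0.0143), *Grin2b* to *Grin1* by -1.17 (exact permutation p = 0.0381) and all *Grin2* genes to *Grin1* by -0.53 (exact permutation p = 0.0333). Adjusted over the 7 ratios each of these p-values was 0.0889, so that none of the 3 ratios passed with 4 Gadd45a-KO libraries.

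Genes of the surrounding pathway were taken from a list of 61 in 6 roles, of which 58 passed the filter. At 1% FDR 0 were lower and 0 higher in edgeR, and DESeq2 also called 0. At an unadjusted p under 0.05 edgeR had 8 of the 58 lower and 2 higher, where 9.35% of all genes tested were lower and 4.34% higher. Their median log2 fold change was -0.02, and that of all genes tested was 0.00. The gene with the lowest p in each role is named. Of 12 scaffold genes, which hold receptors at the postsynaptic density, *Dlgap2* had 79.1 ± 5.96 CPM in Wildtype and 67.2 ± 7.28 CPM in Gadd45a-KO (SD, n = 6 each), a log2 fold change of -0.23 (SE 0.07, edgeR adjusted p = 0.0840). Of 11 trafficking genes, *Lin7a*, part of a complex that carries NMDA receptor vesicles, had -0.15 (SE 0.05, edgeR adjusted p = 0.122). Of 14 kinase and phosphatase genes, *Fyn*, a Src-family kinase that phosphorylates GluN2B, had 0.03 (SE 0.03, edgeR adjusted p = 0.661). Of 9 effector genes, *Rasgrf2*, a calcium-regulated activator of Ras, had -0.27 (SE 0.08, edgeR adjusted p = 0.0795). Of 7 genes for making and carrying the co-agonists, *Srr*, which makes D-serine, had -0.11 (SE 0.05, edgeR adjusted p = 0.289). Of 5 synaptic partners, *Lrrtm2*, a postsynaptic adhesion protein, had -0.11 (SE 0.04, edgeR adjusted p = 0.194). None of these estimates came near those of *Grin2a* and *Grin2b* in size. How far the size of an estimate depends on the part of the 3′UTR that is annotated for a gene was not tested.

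For each subunit gene the 3 genes with the most similar pattern over the 12 libraries were listed, by Pearson's r of log2 CPM after the mean of each label had been subtracted. These values are descriptions, and libraries share depth and dissection. *Grin2a* was closest to *Anapc1* (r = 0.975), *Fam126a* (0.938) and *Ddhd1* (0.937). *Grin2b* was closest to *6230409E13Rik* (r = 0.979), *Adra1a* (0.976), which codes for an alpha-1 adrenergic receptor, and *Golgb1* (0.973), which codes for a Golgi protein. Of these 6 genes, *Anapc1*, a subunit gene of the anaphase-promoting complex, and *6230409E13Rik* were lower in Gadd45a-KO at 1% FDR, with log2 fold changes of -0.35 (SE 0.05, edgeR adjusted p = 0.000785) and -0.43 (SE 0.08, edgeR adjusted p = 0.00685). *Grin1* was closest to *Acap3* (r = 0.964), *Numbl* (0.963) and *Pik3r2* (0.960), and *Grin2c* to *Jph4* (0.924), *E130012A19Rik* (0.918) and *Ppp1r1b* (0.915). *Grin2d* was closest to *Chrna4* (r = 0.962), which codes for a nicotinic receptor subunit, *Cit* (0.959) and *Grm4* (0.954). *Grin3a* was closest to *Usp4* (r = 0.944), *Gabrg1* (0.939) and *Rpgr* (0.937). Among the subunit genes themselves, r was 0.811 for *Grin2a* with *Grin2b*, 0.785 for *Grin2a* with *Grin3a* and 0.738 for *Grin2b* with *Grin3a*, and 0.521 for *Grin1* with *Grin2c*. The remaining 11 pairs had r between -0.45 and 0.207.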

How the data were processed

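Hippocampal RNA-seq counts from 12 mice were analysed, 6 per label, with labels and replicate numbers from the sample titles. The authors aligned reads with TopHat 1.4.1 to NCBIM37/mm9 and deposited raw read counts per Ensembl gene, made with htseq-count (HTSeq 0.5.4p3) in stranded mode. Reads on no gene were left out of gene totals. Names, coordinates and lengths came from Ensembl release 65 of the same build (the authors used release 66), which held 37205 of the 37991 IDs. Counts were filtered, TMM-normalized and tested with edgeR 4.0.16 (R 4.3.3) without covariates. SE was obtained from the log2 fold change divided by the root of its F statistic, and log2 CPM used a prior count of 2. Ratios used counts plus 0.5. Permutations were run in Python 3.11.15 and plots in matplotlib 3.10.9. Alternatives included DESeq2 1.42.0, other filters, size factors, a length offset, thalamic markers as covariate and each library left out, and leaving out Gadd45a-KO replicates 2 and 3 together was chosen after seeing the data. Subunits and lists were chosen with earlier results of these data known. Named were all subunits, *Gadd45a*, the gene with the lowest p in each pathway role and the 3 genes most like each subunit. The procedures were tested on simulated data. No source says that equal replicate numbers share a batch, and p-values measure the spread between these mice. The matching sequences of the remaining subunits are not reported here.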

Additional observations from a re-analysis of the deposited data

How the results depend on the processing

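*Grin2a* was past 1% FDR in all 21 alternative fits, with log2 fold changes from -1.51 to -1.26. *Grin2b* was below 0 in all 21 and past 1% FDR in 4. The number of subunit genes lower at 1% FDR was 1 in the reported fit and 2 at 5% FDR, with DESeq2, with the replicate block, and with the length offset and replicate block. It ranged from 1 to 2 when 1 library was left out. With the replicate number as a block, *Grin2b* had -1.50 (edgeR adjusted p = 0.00517), and with the block and the length offset -1.45 (edgeR adjusted p = 0.00511). Same-numbered libraries deviated together with a mean r of 0.140 (different numbers -0.03), over 0.1 for 5 of 6 numbers, and 1 of 6 Wildtype libraries correlated best with its own number, so that the numbers were not taken to pair the mice. For the ratios the replicate block was a sign permutation within numbers, whose smallest unadjusted p is 0.0313. Its values for *Grin2a* (-1.29), *Grin2b* (-1.48) and all *Grin2* genes (-0.55) to *Grin1* each had that p, 0.0729 after adjustment over the 7 ratios, so that these 3 no longer passed. They did not pass without Gadd45a-KO replicates 2 and 3 either (-1.25, -1.17 and -0.53, each with an adjusted p of 0.0889). With 1 library left out they passed in every fit, from -1.48 to -1.16, from -1.72 to -1.29 and from -0.642 to -0.463. In the blocked fit 1 pathway gene was lower at 1% FDR, *Neto1* (-0.23, edgeR adjusted p = 0.00279), named after its values were seen.

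Estimates near 0 changed sign. Without Gadd45a-KO replicates 2 and 3 the log2 fold change was 0.01003 for *Grin1*, 0.0272 for *Grin2c* and -0.0466 for *Grin2d*, and the log2 ratio differed by -0.0582 for *Grin2d* to *Grin1* and by -0.0763 for *Grin2a* to *Grin2b*. With the thalamic covariate the fold changes were 0.00235 for *Grin1*, 0.0178 for *Grin2c* and -0.0406 for *Grin2d*. With the length offset they were 0.0357 for *Grin1* and 0.00267 for *Grin3a*, and with offset and replicate block 0.0347 and 0.00474. *Grin2c* had 0.000456 without a filter and 0.00113 with at least 10 counts in every library. With medians in place of means, the log2 ratio to *Grin1* differed by -0.0109 for *Grin2c* and by 0.0554 for *Grin3a*. With 1 library left out, fold changes ran from -0.0671 to -0.00137 for *Grin1*, from -0.0425 to 0.0391 for *Grin2c*, from 0.0415 to 0.223 for *Grin2d* and from -0.176 to -0.0303 for *Grin3a*. Ratios to *Grin1* then ran from -0.0133 to 0.0657 for *Grin2c*, from 0.0518 to 0.241 for *Grin2d* and from -0.165 to 0.0141 for *Grin3a*, and *Grin2a* to *Grin2b* from 0.0171 to 0.348. In Gadd45a-KO, r without the 2 farthest libraries was -0.167 for *Grin1* on *Grin2a*, and -0.443 and -0.396 for *Grin2a* and *Grin2b* on reads without a gene. The causes were not tested. With 2 to 15 reads per library, no difference in *Grin3b* was detectable at this depth.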

Other observations

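The other glutamate receptor genes, 19 in number, give a background of related receptors. Of the 18 that passed the filter, 1 was lower in Gadd45a-KO at 1% FDR and 0 were higher in edgeR, against 2.62% lower over all genes tested, and DESeq2 called 2 lower and 0 higher, against 4.15% lower. At an unadjusted p under 0.05, edgeR had 4 lower and 0 higher, where 9.35% of all genes were lower. Their median log2 fold change was -0.05. The gene called in edgeR, named after its values were seen, was *Grm5*. It codes for the metabotropic receptor mGluR5 that couples to the NMDA receptor through Homer and Shank proteins. It had 280.9 to 342.8 CPM in the libraries labelled Wildtype and 213.9 to 263.8 CPM in those labelled Gadd45a-KO, without overlap, and a log2 fold change of -0.33 (SE 0.05, edgeR adjusted p = 0.00193). Without Gadd45a-KO replicates 2 and 3 it had -0.28 (edgeR adjusted p = 0.0108), so that 0 of the 18 genes were called, and with the thalamic covariate it had -0.28 (edgeR adjusted p = 0.00545) and was called. The ionotropic families had no call in edgeR, with median log2 fold changes of -0.11 for 4 AMPA receptor genes, -0.05 for 5 kainate receptor genes and 0.03 for 2 delta receptor genes. Besides *Grm5*, DESeq2 called the AMPA receptor gene *Gria2* (log2 fold change -0.26, adjusted p = 0.00125), also named after its values were seen. In edgeR *Gria2* had -0.27 (edgeR adjusted p = 0.02015).

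Of the 42 sets of 6 values examined for a library far from the others (CPM, shares and ratios of each subunit in each label), 0 held one by Dixon's test at its 95% critical value, where about 2.1 would be met by chance.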
